A study of Mus musculus with 6 samples.

Results

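The EGR, IER and MYC growth-response genes are a group of 10 genes: Egr1, Egr2, Egr3, Egr4, Ier2, Ier3, Ier5, Myc, Mycn and Max. They were picked by gene symbol, from a list drawn up with earlier results of these data known, and all 10 had a probe set among the 22085 genes measured. Each had 1 probe set, so no choice between probe sets was needed. Expression was measured in MA-10 cells, a line from a mouse Leydig cell tumour kept in medium with horse serum, 48 h after a small interfering RNA was given. In 3 samples (siRNA MEF2) the RNA was directed against the transcription factors MEF2A and MEF2D, and in 3 samples (siRNA control) it was scrambled. Each sample was read on 1 Affymetrix whole-transcript array, and values are the deposited log2 signals. The labels do not say whether the samples of a group came from separate cultures, and their spread, on which the p-values rest, may be technical.

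Immediate early genes are switched on by serum, growth factors and hormones within minutes and without new protein synthesis, largely through the ERK kinases and the factors SRF and ELK at CArG boxes in their promoters. EGR1 to EGR4 are zinc-finger transcription factors that bind a GC-rich motif and are held back by the corepressors NAB1 and NAB2. The IER genes encode small proteins of stress and growth signalling that do not belong to 1 family by sequence. MYC and MYCN are transcription factors of growth and division that bind E boxes only as dimers with MAX, for which the repressors of the MXD family and MNT compete. In Leydig cells, luteinizing hormone acts mainly through cyclic AMP and also through ERK, and EGR factors are among the early genes it can induce.

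Promoter sequences were taken from the RefSeq table of GRCm38.p6 and run from 250 bases before to 50 bases after a gene's start. Those of 6 of the 10 genes were searched (Egr2, Egr4, Ier3, Ier5, Mycn and Max). The promoters of Egr1, Egr3, Ier2 and Myc were not searched. The promoters of Ier3 and Ier5 are shown because these are the IER members called in opposite directions. Capitals mark the TATA motif (TATAA), the CCAAT box, named by its letters, and the GC box (GGGCGG), each on either strand, in the 250 bases before the start. Ier3 lies on the plus strand at chr17:35821463-35821712 and Ier5 on the minus strand at chr1:155099637-155099886.
Ier3: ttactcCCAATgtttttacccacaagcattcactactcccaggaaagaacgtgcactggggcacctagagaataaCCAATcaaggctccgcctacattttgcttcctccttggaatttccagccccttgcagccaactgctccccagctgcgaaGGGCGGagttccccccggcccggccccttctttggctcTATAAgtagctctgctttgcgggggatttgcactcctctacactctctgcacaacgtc
Ier5: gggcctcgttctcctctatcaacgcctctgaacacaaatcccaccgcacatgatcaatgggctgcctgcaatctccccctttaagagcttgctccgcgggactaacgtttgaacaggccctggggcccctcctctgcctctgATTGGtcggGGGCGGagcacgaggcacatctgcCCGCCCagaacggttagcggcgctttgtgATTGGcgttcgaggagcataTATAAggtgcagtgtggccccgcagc

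Both promoters held all 3 of these motifs, which are common: among 32851 promoters of the same length, TATAA occurred in 24.9%, CCAAT in 37.4% and GGGCGG in 35.7%. Ier3 also held an NF-kappaB motif, on the opposite strand from base -92 to base -83 counted from the start, overlapping the end of its GGGCGG. That motif was present in 4.51% of promoters, and among the members also in Egr4. The CArG box, the binding motif of SRF, was found in 1.63% of promoters and, among the members searched, in Egr2 alone. It is shown in capitals with 10 bases on each side at 2 places on the plus strand of chromosome 10, chr10:67537484-67537513 and chr10:67537787-67537816.
Egr2, first site: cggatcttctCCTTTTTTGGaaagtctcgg
Egr2, second site: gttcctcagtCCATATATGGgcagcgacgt
Max carried the E box CACGTG, the motif that MYC and MAX dimers bind, across its own start at chr12:76962236-76962261 on the minus strand.
Max: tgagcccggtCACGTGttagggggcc
The E box was present in 7.15% of promoters, and among the members also in Egr2. The MEF2 motif (3.19% of promoters) and GCGNGGGCG, the EGR motif (5.55% of promoters), were in none of the windows of these 6 genes, which says only that these letters are absent there. TGACG, the core of the cyclic AMP response element, was in Egr2 and Egr4 (20.8% of promoters). All motifs were searched on both strands, and a match is a description of the letters and not a site of binding. The shares are per promoter entry, whereas Egr2 had 5 starts and counts as holding a motif found at any of them. Its motifs are therefore not directly comparable with these shares.

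The 10 genes did not move as a group. After siRNA MEF2, Ier3, Myc and Max fell, Egr1 and Ier5 rose, and Egr2, Egr3, Egr4, Ier2 and Mycn did not pass the test (limma, adjusted p under 0.05 over all genes). The 5 of 10 called compare with 20.7% of all genes called, 9.04% higher and 11.7% lower. Median centring of the arrays left 1 member called higher and 3 lower, quantile normalization 0 and 2, and cyclic loess 0 and 3. With a variance trend and robust estimation, or without any 1 of the siRNA control arrays, 3 were called, all lower. The median log2 difference of the 10 genes was 0.06, and that of all genes was 0.04. Ier3 and Myc passed in each of the 15 alternatives tried and Max in 14 of 15, whereas Egr1 passed in 9 of 15 and Ier5 in 5 of the 14 in which it was tested. The groups did not overlap for 6 of the 10 genes, 3 higher and 3 lower in siRNA MEF2, where 40.8% of all genes showed no overlap (22.8% higher and 18% lower).

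**Figure D1:**
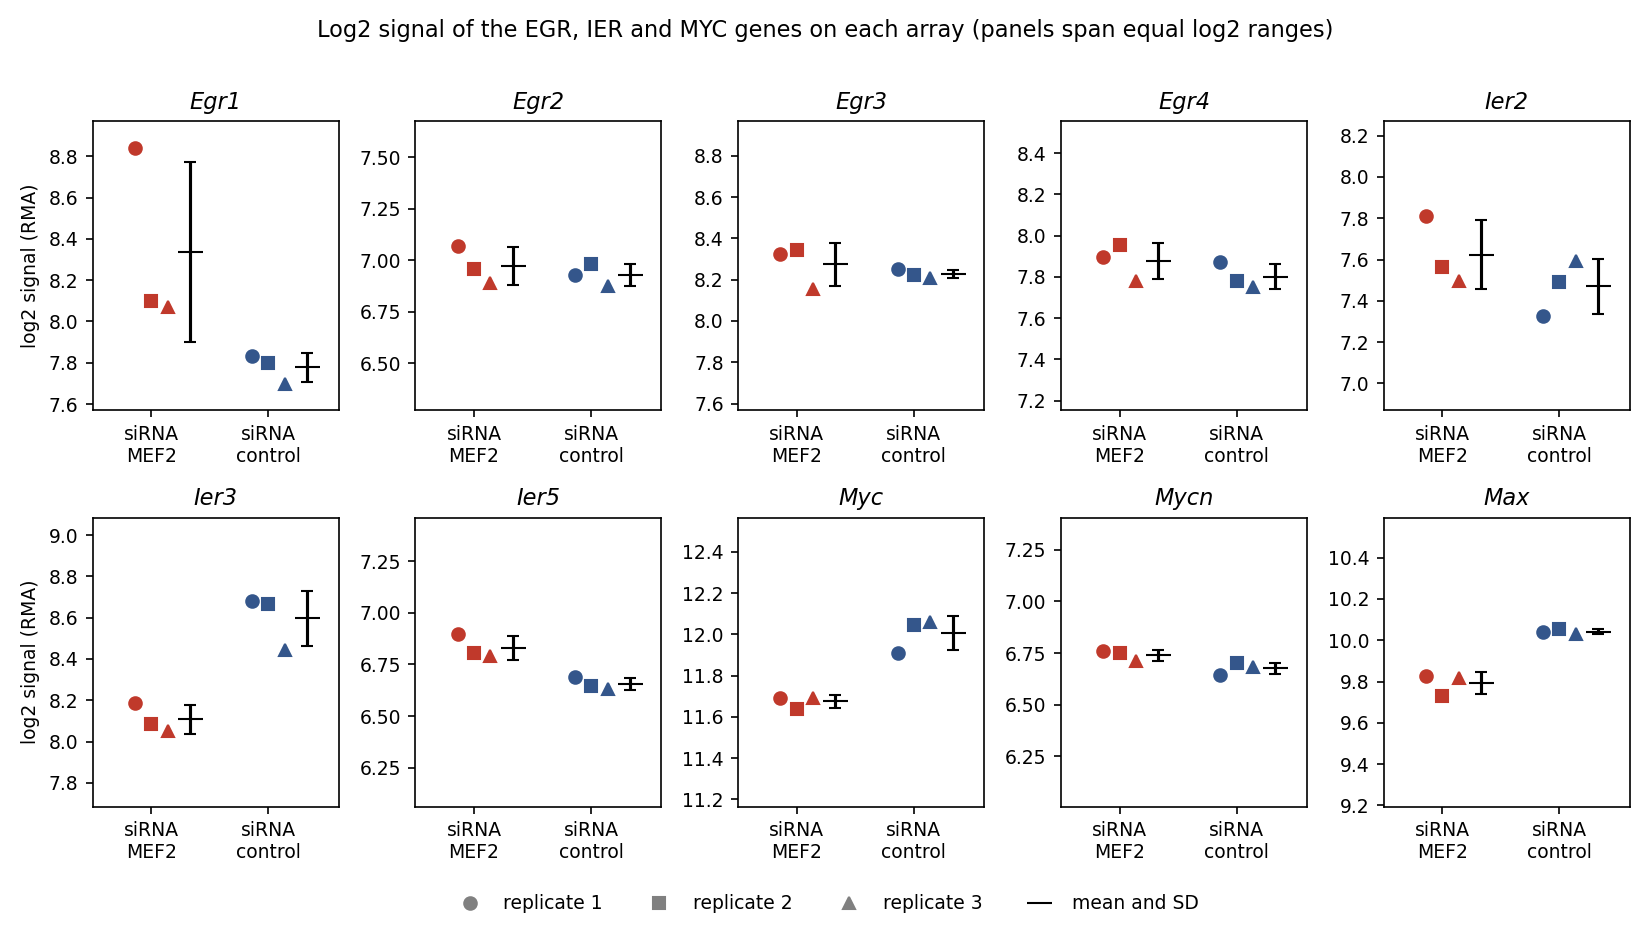
Log2 signal (vertical axis, RMA) of each of the 10 genes on the 3 siRNA MEF2 and 3 siRNA control arrays; symbols give the replicate number, and the bar at the right of each group is the mean with its SD. Ier3, Myc and Max sit lower on all siRNA MEF2 arrays than on any control array, and Egr1 stands at 8.84 on siRNA MEF2 replicate 1, apart from 8.10 and 8.07 on the other siRNA MEF2 arrays.

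The knockdown and the identity of the cells were read on the same arrays. Mef2a was at 10.01 ± 0.18 (SD, n = 3) in siRNA MEF2 and 10.79 ± 0.01 (SD, n = 3) in siRNA control, a 1.72-fold fall (limma adjusted p = 8.43e-05). Mef2d was at 10.79 ± 0.17 (SD, n = 3) in siRNA MEF2 and 11.25 ± 0.05 (SD, n = 3) in siRNA control (limma adjusted p = 0.00205). Pearson's r across genes was 0.997 to 0.999 between arrays of 1 group and 0.995 to 0.996 between groups. Of the Leydig cell markers, Cyp11a1, Lhcgr and Nr5a1 had group means of 11.65 to 12.26, and Insl3 is not analysed here. Of the 7 Leydig cell markers measured, 3 were called higher (Cyp17a1 by 0.42, Lhcgr by 0.45 and Nr5a1 by 0.20) and 3 lower. That is 42.9% each way, against 9.04% of all genes higher and 11.7% lower. Of the 7, 5 lay in the 3 highest deciles of signal, where 4.5% of genes were called higher and 24.6% lower. Star, which carries cholesterol into mitochondria, was at 8.71 in siRNA MEF2 and 9.62 in siRNA control (log2 -0.91, limma adjusted p = 0.000284), and Scarb1 and Hsd3b1 differed by -0.52 and -0.46. Hsd3b1 had low signal, at 7.34 in siRNA MEF2 and 7.81 in siRNA control. Of the negative control probe sets, 50.5% had a higher mean than Hsd3b1 in siRNA MEF2 and 38.3% in siRNA control. Of 28 markers of other testis cells, 17 were at or below the median of the negative control probe sets, which lay between 7.16 and 7.53 per array. Fshr, Dazl, Adgre1 and Emcn, which mark Sertoli, germ, macrophage and endothelial cells, had group means of 4.95 to 6.69. Among the 11 above that median were the Sertoli cell markers Sox9 and Rhox5. The germ cell marker Ddx4 was also above it, at 8.38 in siRNA MEF2 and 7.99 in siRNA control, and was called higher. The macrophage marker Cd68 was at 8.19 in siRNA MEF2 and 8.73 in siRNA control and was called lower. The endothelial marker Cdh5 was at 11.84 in siRNA MEF2 and 12.26 in siRNA control and fell. Of the 28 markers 8 were called higher and 2 lower, where 9.04% of all genes were higher and 11.7% lower. Their summed linear signal was 3026 to 3232 in siRNA MEF2 and 2661 to 2851 in siRNA control for Sertoli cells, 669 to 713 and 573 to 620 for germ cells, 715 to 725 and 764 to 868 for macrophages, 3949 to 4068 and 4835 to 5474 for endothelial cells, and 922 to 947 and 843 to 864 for peritubular cells and fibroblasts. Each sum follows its highest genes. Endothelial markers other than Cdh5 (Pecam1, Kdr, Tek and Emcn) had group means of 5.43 to 7.02, and Tek was called higher. Sertoli cell markers other than Rhox5 and Sox9 had group means of 6.68 to 7.69. The sums are therefore not a measure of cell content. The part of these markers in the results below was not tested.

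Called genes were spread unevenly over the range of signal, which bears on each member below. In the 3 highest deciles of signal 24.6% of genes were called lower and 4.5% higher, while in decile 5 3.67% were called lower and 16.6% higher. Myc stood in decile 10, Max in decile 8, Egr1, Egr3 and Ier3 in decile 6, Egr4 and Ier2 in decile 5, Egr2 in decile 4, and Ier5 and Mycn in decile 3. Over all genes 1997 were called higher and 2580 lower, a split that became 826 and 3589 after median centring of the arrays. The decile ranks the signal of probe sets, which differ in their probes, and is not an amount of RNA.

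**Figure D2:**
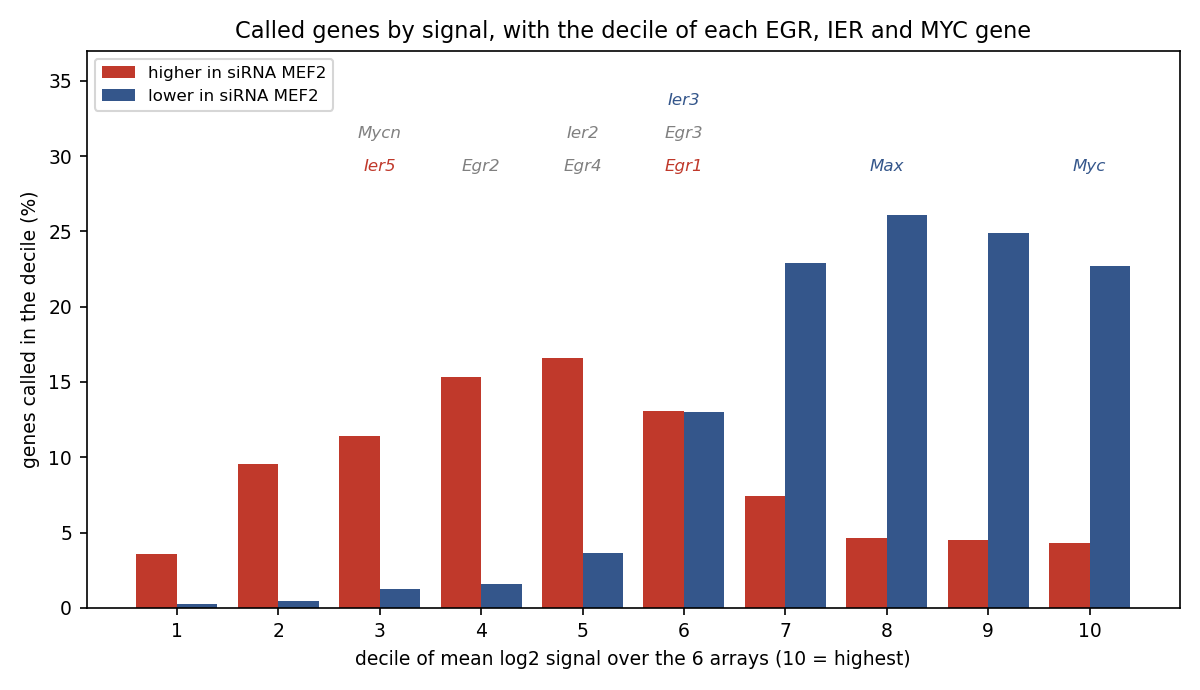
Share of genes called higher and lower in siRNA MEF2 (vertical axis, percent) in each decile of mean log2 signal over the 6 arrays (horizontal axis), with the name of each of the 10 genes above its decile in the colour of its call, grey where it did not pass. Lower calls reach 26.1% in decile 8, which holds Max, and 22.7% in decile 10, which holds Myc, and are 13% in decile 6, which holds Ier3.

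Among the EGR factors, Egr1 alone passed the test. EGR1 is the best studied member of the family and in mice is needed for Lhb expression in the pituitary. Egr1 (probe set 10454782) read 8.84, 8.10 and 8.07 on siRNA MEF2 replicates 1 to 3, against 7.83, 7.80 and 7.70 on siRNA control replicates 1 to 3. All siRNA MEF2 values lay above all control values, and replicate 1 lay far above the other siRNA MEF2 arrays. The means were 8.34 ± 0.44 (SD, n = 3) in siRNA MEF2 and 7.78 ± 0.07 (SD, n = 3) in siRNA control, a log2 difference of 0.56 (SE 0.16, 95% interval 0.22 to 0.90, limma adjusted p = 0.026). Only 0.974% of genes had a larger absolute difference. Without siRNA MEF2 replicate 1 the difference was 0.31, with an adjusted p of 0.0083. The call was lost without any 1 of the control arrays (adjusted p from 0.0569 to 0.0714), after quantile normalization (0.0618) or cyclic loess (0.052), and with a variance trend and robust estimation (0.118). In the siRNA MEF2 group 28.4% of the negative control probe sets had a mean above that of Egr1, and in the siRNA control group 39%. No fold is given for Egr1 because folds are kept to genes with a mean of at least 8 in both groups.

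Egr2, a regulator of myelination in mouse Schwann cells, read 7.07, 6.96 and 6.89 in siRNA MEF2 and 6.93, 6.98 and 6.88 in siRNA control. The groups overlapped, and the log2 difference was 0.04 (95% interval -0.09 to 0.18, limma adjusted p = 0.643). Its sign turned under 4 of 14 alternatives. Egr3, needed in mice for muscle spindles, read 8.33, 8.34 and 8.15 in siRNA MEF2 and 8.25, 8.22 and 8.21 in siRNA control. Here siRNA MEF2 held both the highest and the lowest values, and the difference was 0.05 (95% interval -0.09 to 0.19, limma adjusted p = 0.607). Egr4, whose loss makes male mice infertile, read 7.90, 7.96 and 7.78 in siRNA MEF2 and 7.87, 7.78 and 7.75 in siRNA control. Its groups overlapped too, with a difference of 0.08 (95% interval -0.06 to 0.21, limma adjusted p = 0.403). Whether the difference of Egr1 departed from those of these 3 genes was not tested.

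The IER genes split. Ier3, a stress-inducible gene whose product acts on survival and ERK signalling, read 8.18, 8.09 and 8.05 in siRNA MEF2, against 8.68, 8.67 and 8.44 in siRNA control. Every siRNA MEF2 value lay below every control value. The means were 8.11 ± 0.07 (SD, n = 3) in siRNA MEF2 and 8.60 ± 0.13 (SD, n = 3) in siRNA control. Ier3 (probe set 10444890) fell by 0.49 on the log2 scale (SE 0.07, 95% interval -0.65 to -0.33), a 1.40-fold fall (limma adjusted p = 0.000873). Its signal too lay within the range of the negative controls, of which 32.9% had a higher mean in siRNA MEF2 and 21.2% in siRNA control. Its p was the smallest of the 10 genes, and 1.65% of all genes had a larger absolute difference. Across the alternatives the difference lay between -0.57 and -0.45, with an adjusted p of at most 0.0066.

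Ier5, whose product activates the heat-shock factor HSF1 in human cells, read 6.90, 6.81 and 6.79 in siRNA MEF2, against 6.69, 6.65 and 6.63 in siRNA control. The groups did not overlap, and the values lay close together within each group. Ier5 (probe set 10358978) had means of 6.83 ± 0.06 (SD, n = 3) in siRNA MEF2 and 6.66 ± 0.03 (SD, n = 3) in siRNA control, a difference of 0.18 (SE 0.06, 95% interval 0.05 to 0.30, limma adjusted p = 0.0472). On each array its signal was under that array's negative control median, and 26.8% of all genes had a larger absolute difference. The call was lost under 9 of 14 alternatives, and after quantile normalization or cyclic loess the difference was 0.08 or 0.07 (adjusted p = 0.366 and 0.411). Ier2, an early gene of growth and migration, read 7.81, 7.56 and 7.50 in siRNA MEF2 and 7.33, 7.49 and 7.59 in siRNA control. The highest value came from siRNA MEF2 replicate 1 and the lowest from siRNA control replicate 1, with the others intermixed. The difference was 0.15 (SE 0.09, 95% interval -0.04 to 0.34, limma adjusted p = 0.223).

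Myc and its partner Max were both lower after siRNA MEF2. Myc (probe set 10424400) read 11.69, 11.64 and 11.69 in siRNA MEF2, against 11.91, 12.05 and 12.06 in siRNA control. The siRNA MEF2 values agreed closely with each other and lay below all control values. The means were 11.68 ± 0.03 (SD, n = 3) in siRNA MEF2 and 12.01 ± 0.08 (SD, n = 3) in siRNA control. Myc fell by 0.33 on the log2 scale (SE 0.06, 95% interval -0.46 to -0.20), or 1.26-fold (limma adjusted p = 0.00321), and across the alternatives the difference lay between -0.38 and -0.26. Its signal was far above most negative controls: 1.21% of them had a higher mean in siRNA MEF2 and 0.785% in siRNA control. In its decile of signal 22.7% of genes were called lower.

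Max (probe set 10401128) read 9.83, 9.73 and 9.82 in siRNA MEF2, against 10.04, 10.06 and 10.03 in siRNA control. The groups did not overlap, and the control arrays spread by only 0.01 (SD, n = 3) around 10.04, against 9.79 ± 0.05 (SD, n = 3) in siRNA MEF2. Max fell by 0.25 on the log2 scale (SE 0.06, 95% interval -0.37 to -0.13), or 1.19-fold (limma adjusted p = 0.00947). After quantile normalization the difference was -0.15 and the call was lost (adjusted p = 0.0756). In its decile 26.1% of genes were called lower, and 12.4% of all genes had a larger absolute difference. Mycn, the paralog of Myc known from neural progenitors, read 6.76, 6.75 and 6.71 in siRNA MEF2 and 6.64, 6.70 and 6.68 in siRNA control. All of its siRNA MEF2 values lay above the control values, but the difference was 0.07 (95% interval -0.05 to 0.18, limma adjusted p = 0.397), its signal was below the negative control medians, and its sign turned after quantile normalization and cyclic loess.

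**Figure D3:**
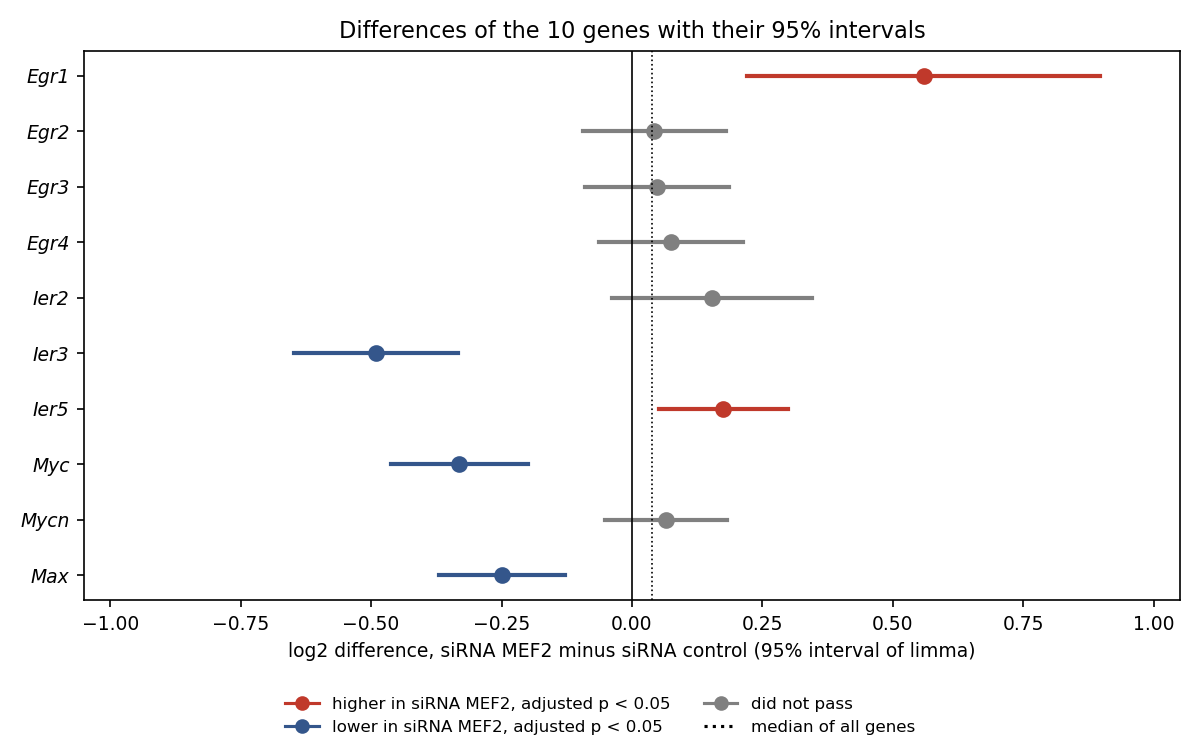
Log2 difference, siRNA MEF2 minus siRNA control (horizontal axis), for each of the 10 genes, with the 95% interval of limma as a bar; colours give the call, the solid line is 0 and the dotted line the median of all genes, 0.04. The intervals of Ier3, Myc and Max lie below 0, those of Egr1 and Ier5 above it, and the interval of Egr1, 0.22 to 0.90, is the widest.

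The siRNA MEF2 arrays differed among themselves for several of these genes. Replicate 1 was the highest of the 3 siRNA MEF2 arrays for 8 of the 10 genes, all but Egr3 and Egr4, whereas it was the highest for 43% of all genes. For some of the 8 it led by very little. Myc read 11.6935 on replicate 1 and 11.6929 on replicate 3, and Max 9.8261 and 9.8192. Mycn read 6.7589 on replicate 1 and 6.7526 on replicate 2. Of 27 other immediate early genes replicate 1 was the highest for 21 (77.8%). In the other lists read below this share ran from 20% (genes known as MYC targets) to 81.8% (NF-kappaB genes), so a high share was not limited to early genes. Relative to the control mean, Egr1 was 1.06 higher on replicate 1 and 0.32 and 0.29 higher on replicates 2 and 3, and Ier2 was 0.34, 0.09 and 0.03 higher. Atf3, a stress-induced early factor chosen after its values were seen, was at 0.57, -0.06 and -0.11. The falls of Ier3, Myc and Max were of like size on the 3 arrays: Ier3 stood at -0.41, -0.51 and -0.55, Myc at -0.31, -0.37 and -0.31, and Max at -0.22, -0.31 and -0.22. Mef2a and Mef2d were lowest on the same replicate 1, at 9.80 and 10.60, and the median of its negative controls was also the lowest, at 7.16. The part of these in the high Egr1 value was not tested.

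**Figure D4:**
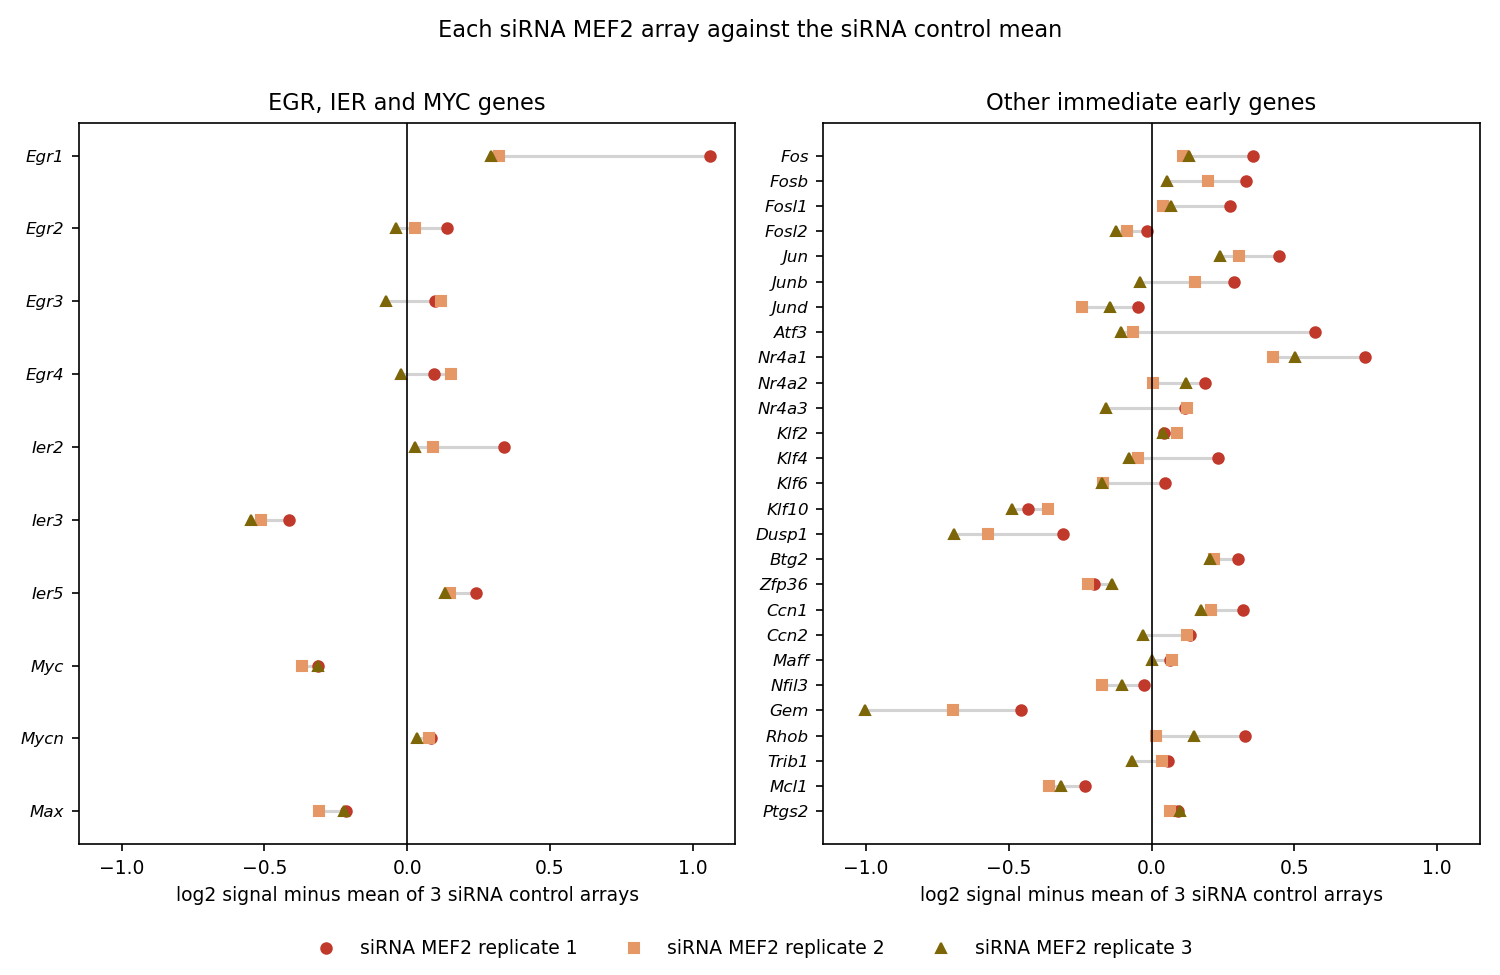
Log2 signal of each siRNA MEF2 array minus the mean of the 3 siRNA control arrays (horizontal axis), for the 10 genes on the left and the 27 other immediate early genes on the right; symbols are replicates and grey bars join the lowest and highest. Egr1 on replicate 1 stands at 1.06, and replicate 1 is the rightmost symbol for 8 of the 10 genes and for 21 of the 27 others.

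Genes that act with the EGR factors went both ways. Of 14 corepressors and genes known as EGR targets, 3 rose and 4 fell (50%, against 20.7% of all genes), with a median log2 difference of 0.01. The counts were 2 higher and 3 lower with quantile normalization or cyclic loess, and 1 and 4 when siRNA control replicate 1 or 3 was left out. The corepressor gene Nab1 fell 1.32-fold, to 10.83 ± 0.09 (SD, n = 3) in siRNA MEF2 against 11.23 ± 0.05 (SD, n = 3) in siRNA control (log2 -0.40, SE 0.06, limma adjusted p = 0.00119). Its paralog Nab2 differed by -0.03 (limma adjusted p = 0.762). F3, the tissue factor gene, fell 1.23-fold (limma adjusted p = 0.00522). Icam1, an adhesion molecule, rose 1.21-fold (limma adjusted p = 0.00822), with 25% of the negative controls above it in siRNA MEF2 and 28.7% in siRNA control. The calls of Nab1, F3 and Icam1 held in all 15 alternatives. Lhb, the pituitary target of EGR1 and chosen after its values were seen, was called at 0.25 (limma adjusted p = 0.0157), with means of 8.10 in siRNA MEF2 and 7.85 in siRNA control and 33.1% and 37.4% of the negative controls above it.

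The MAX network was lower more often than higher. Of 10 other members 5 fell and 1 rose, a median difference of -0.14, where 11.7% of all genes and 24.6% of the genes in the 3 highest deciles of signal were lower. Mxd3, which encodes a MYC antagonist made in dividing cells, read 9.01, 9.04 and 9.10 in siRNA MEF2 and 9.49, 9.55 and 9.55 in siRNA control. It fell 1.39-fold (log2 -0.48, SE 0.06, limma adjusted p = 0.000234), without overlap and under all 15 alternatives. Mxi1, another antagonist, fell 1.32-fold (limma adjusted p = 0.00478), but the mean over its probe sets differed by -0.12 (adjusted p = 0.142). Mxd4, an antagonist of resting cells, was called higher by 0.23 (limma adjusted p = 0.0253) and lost the call in 5 of 15 alternatives. Mlx, a partner of the glucose-responsive factors, was called lower, by -0.26 (limma adjusted p = 0.026) and lost the call in 7 of 15. Mlxip and Mlxipl, the glucose-responsive factors themselves, chosen after their values were seen, also fell, with differences of -0.26 and -0.38 (limma adjusted p = 0.0344 and 0.0296). Mycl, Mxd1, Mnt and Mga did not pass, with differences between -0.03 and 0.19. The count was 1 higher and 2 lower after quantile normalization and after cyclic loess, and 0 and 5 after median centring. It was 3 in all when siRNA MEF2 replicate 1 or siRNA control replicate 1 or 2 was left out, and 2 when siRNA MEF2 replicate 2 or siRNA control replicate 3 was.

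Genes known as MYC targets were mostly close to their control levels. Of 30 genes, 27 of them in the 3 highest deciles of signal, 5 fell and 0 rose by limma (0 rose and 6 fell at an unadjusted p under 0.05). After quantile normalization 1 rose and 3 fell, and 3 fell after cyclic loess. The share of all 30 that fell, 16.7%, compares with 24.6% of all genes in those deciles, which held all 5 that fell. The median difference was -0.07. Tfrc, the transferrin receptor gene, fell 1.42-fold, to 11.58 ± 0.07 (SD, n = 3) in siRNA MEF2 against 12.09 ± 0.07 (SD, n = 3) in siRNA control (log2 -0.51, limma adjusted p = 0.000291). Odc1, which encodes the first enzyme of polyamine synthesis, fell 1.38-fold (limma adjusted p = 0.000317), Mrto4, a ribosome assembly gene, 1.28-fold, and Pa2g4, a growth regulator, 1.22-fold. Pa2g4 did not pass with quantile normalization (adjusted p = 0.0722), with cyclic loess (0.0552) or without siRNA control replicate 3 (0.0527). The nucleolar genes Ncl, Npm1, Fbl, Nop56 and Nop58, standard readouts of MYC chosen after their values were seen, did not pass, with differences from -0.11 to -0.04. Of 16 MYC cofactors and genes of MYC turnover 2 fell and 2 rose (12.5% each, against 11.7% of all genes lower and 9.04% higher), with a median difference of -0.10. Fbxw7, whose product marks MYC for degradation, fell 1.25-fold (log2 -0.32, limma adjusted p = 0.00389), with 25.6% of the negative controls above it in siRNA MEF2 and 17.7% in siRNA control. Trrap, a coactivator that binds MYC, rose by 0.26 (limma adjusted p = 0.00929). Aurka, a kinase that stabilises N-MYC, was called lower with a difference of -0.26 and Kat5, an acetyltransferase, higher with 0.21 (limma adjusted p = 0.0136 and 0.0344), losing the call in 4 and 6 of 15 alternatives. The split was 4 higher and 1 lower after quantile normalization, 3 and 1 after cyclic loess, and 1 and 5 after median centring, and 2 genes in all were called without siRNA control replicate 2 or 3. Over the NF-kappaB list, which holds the pathway that induces IER3 in human cells, 3 of 11 genes were called higher and 0 lower (4 and 0 at an unadjusted p under 0.05), or 27.3% higher against 9.04% of all genes, with Cxcl1 at 0.27, Relb at 0.20 and Ccl2 at 0.24 (limma adjusted p from 0.00948 to 0.0244). The median was 0.12. By signal, 15.3% of genes were called higher in decile 4, which holds Ccl2. The share was 13.1% in decile 6, which holds Cxcl1, and 7.43% in decile 7, which holds Relb. Cxcl1 and Ccl2 lay within the range of the negative controls, of which 33.8% and 53.8% were above them in siRNA MEF2 and 38.3% and 58.1% in siRNA control. The count of NF-kappaB genes called was 1 after median centring and when siRNA MEF2 replicate 1 or 2 was left out. Relb lost its call in 5 of 15 alternatives and Ccl2 in 6 of 14.

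A heat-shock list was read beside Ier5, whose own signal was under the negative control medians. The list held 9 measured genes: Ier5l, Ier3ip1, Hsf1 and heat-shock genes. By limma 2 fell and 0 rose (3 fell and 2 rose at an unadjusted p under 0.05). The share called, 22.2%, compares with 20.7% of all genes, and the median was -0.07. After quantile normalization 2 rose and 2 fell, and after cyclic loess 1 rose and 2 fell. Hspb1, a small heat-shock protein gene, fell 1.49-fold, to 9.90 ± 0.23 (SD, n = 3) in siRNA MEF2 against 10.48 ± 0.04 (SD, n = 3) in siRNA control (log2 -0.57, limma adjusted p = 0.00147; -0.32 as the mean over its probe sets). Dnajb1, a chaperone partner gene, fell 1.23-fold (limma adjusted p = 0.00983). Hspa1a, another heat-shock gene, went the other way without passing, at 11.28 in siRNA MEF2 and 11.08 in siRNA control. Its log2 difference was 0.20 (limma adjusted p = 0.0759). Hsf1 differed by -0.01 (adjusted p = 0.897), Ier5l by 0.14 (adjusted p = 0.12) and Ier3ip1 by -0.07 (adjusted p = 0.465).

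The pathway that feeds the early genes had more members called lower than higher. Of 18 genes of the ERK cascade, SRF and its partners, 5 fell and 1 rose, with a median difference of 0.0042; 15 of the 18 lay in the 3 highest deciles of signal. The 27.8% of all 18 that fell compare with 24.6% of all genes in those deciles, which held all 5 that fell. Map2k1 and Mapk3, the kinase genes of MEK1 and ERK1, fell 1.28-fold and 1.25-fold, and Rps6ka3, which encodes an ERK-activated kinase, fell 1.30-fold (limma adjusted p from 0.00225 to 0.00431). Elk4, an SRF partner, fell 1.21-fold (limma adjusted p = 0.00765; 0.0527 after quantile normalization). Map2k2, the paralog of Map2k1, differed by 0.09 and Srf by 0.01, without passing. Braf alone was called higher, by 0.25 (limma adjusted p = 0.0202). That is 5.56% of the list, against 9.04% of all genes and 4.5% of genes in the 3 highest deciles. Median centring gave 0 higher and 6 lower, quantile normalization 2 and 3, and cyclic loess 2 and 4. No gene of the list was called higher without siRNA MEF2 replicate 3 or siRNA control replicate 1 or 2. Of the 27 other immediate early genes, 4 rose and 5 fell (14.8% and 18.5%, against 9.04% and 11.7% of all genes), with a median of 0.06. Nr4a1, an orphan nuclear receptor gene, rose 1.47-fold, to 10.18 ± 0.17 (SD, n = 3) in siRNA MEF2 against 9.62 ± 0.07 (SD, n = 3) in siRNA control (limma adjusted p = 0.000752), and Jun rose 1.26-fold. Gem, a small GTPase gene, fell by 0.72 on the log2 scale, to 7.61 in siRNA MEF2 against 8.33 in siRNA control (limma adjusted p = 0.00107), with 44.4% of the negative controls above it in siRNA MEF2 and 26.4% in siRNA control. Klf10 fell by 0.43 on the log2 scale. The split was 2 higher and 6 lower after median centring, and 2 and 5 after quantile normalization or cyclic loess.

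**Figure D5:**
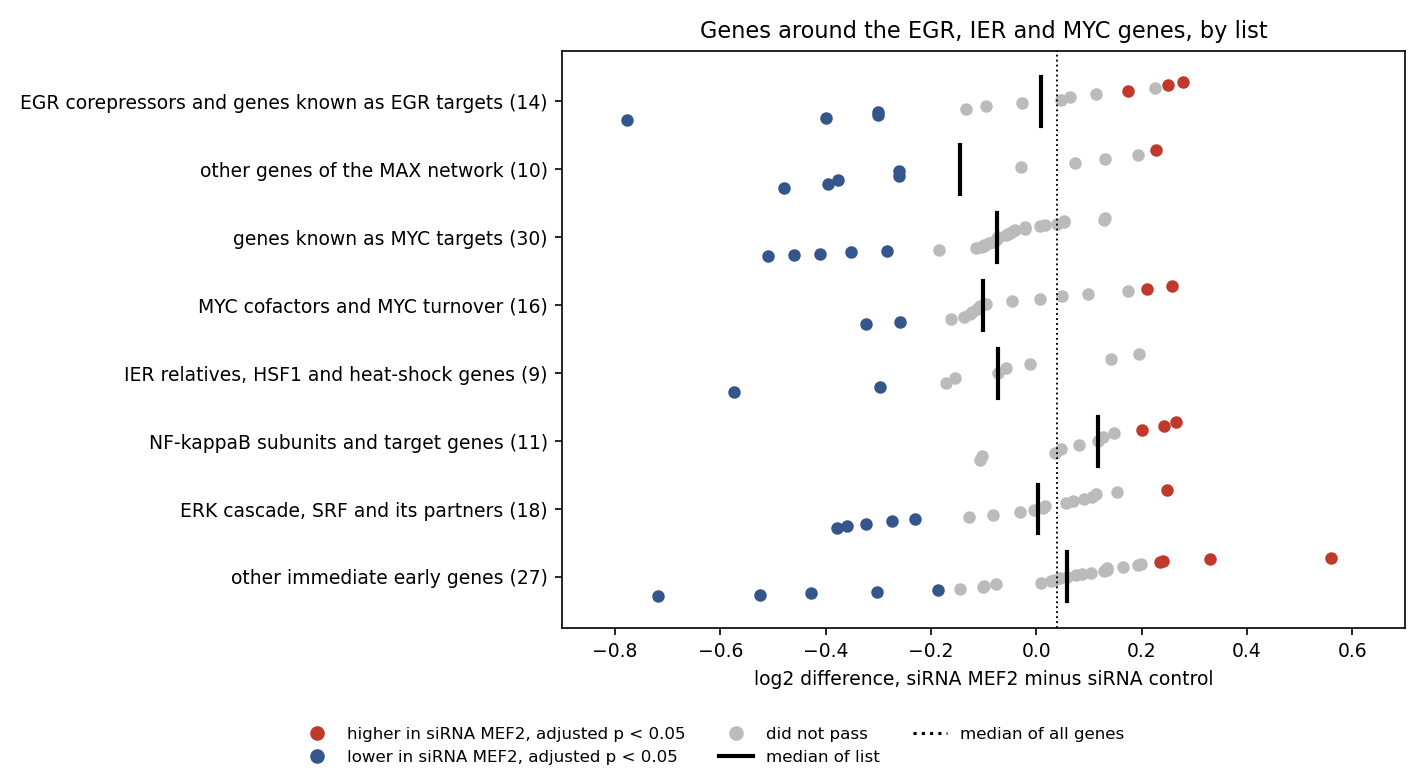
Log2 difference, siRNA MEF2 minus siRNA control (horizontal axis), of each measured gene in 8 lists around the EGR, IER and MYC genes, with the number of genes in brackets; points are genes coloured by call, black bars are list medians and the dotted line is the median of all genes. The MAX network has the lowest median, -0.14, and Gem lies at -0.72 among the other immediate early genes.

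Genes whose values followed each called member most closely over the 6 arrays were taken from those with a mean log2 signal of at least 8 in a group, with Pearson's r as the measure. With 6 arrays that also share the group difference, such values are high for many genes, and they are given as a description. For Ier3 they included Prss35 (r = 0.998) and Ankrd40 (0.994), which fell by 0.54 and 0.40. For Myc they were Pcnx4 (r = 0.999), Eif4ebp2 (0.998) and E2f4 (0.997), which fell by 0.23, 0.21 and 0.26 and lost the call in 4, 5 and 3 of 15 alternatives. After quantile normalization Pcnx4 differed by -0.15, Eif4ebp2 by -0.12 and E2f4 by -0.17. For Max they were Ccdc6 (r = 0.999), Atp6v1d (0.999) and Gosr2 (0.998), which fell by 0.33, 0.47 and 0.37. For Ier5 they were Akirin1 (r = 0.9946), Ajm1 (0.9945) and Spaca4 (0.993), with differences of 0.50, 0.23 and 0.17, of which the last did not pass (adjusted p = 0.0538). For Egr1 they were Btg3 (r = 0.995), Gdf1 (0.993) and H2-Q8 (0.988), and none of these passed on its own (differences of 0.11 to 0.20, limma adjusted p from 0.101 to 0.195). Egr1 itself stood apart on siRNA MEF2 replicate 1, at 8.84 against 8.10 and 8.07 on the other siRNA MEF2 arrays. Its matched genes spread more in siRNA MEF2 (SD 0.09 to 0.19) than in siRNA control (SD 0.01 to 0.03). This follows from their choice by likeness to Egr1 and is no separate result. The part of replicate 1 in these r values was not tested.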

How the data were processed

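Per the file headers, the authors deposited gene-level RMA log2 signals, 1 per probe set and array, and RMA and Partek are named in the submitters' processing notes, without versions. The series matrix held the same 35557 probe sets with a largest difference of 0.0, and 0 signal columns were left unused. Symbols were updated through RefSeq names (GRCm38.p6); 25523 probe sets named 22085 genes, each read by its probe set with the highest mean. RMA puts the arrays on 1 scale, so a shift shared by most genes cannot be measured, and the number of arrays limits the precision.

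Differences were fitted on all genes and 6 arrays in limma 3.58.1 (lmFit, eBayes; R 4.3.3), with no covariate, a two-sided test, Benjamini-Hochberg adjustment and calls at an adjusted p under 0.05; the fit was tested on simulated data. The SD is over 3 arrays of a group, and the SE is limma's moderated one. A fold is given where both means are at least 8. The alternatives changed scaling, filter, probe set choice, variance model, weights, block and replicates. Named genes are the members, the targeted genes, up to 4 called genes per list, ranked by p, and the 3 genes most like each called member. Members and lists were chosen with earlier results of these data known. Some genes that this rule names are not reported here.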

Additional observations from a re-analysis of the deposited data

How the results depend on the processing

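Of the 47 named genes that were called, 31 were called under every alternative in which they were tested, among them Ier3 and Myc. The results for single genes under alternatives numbered 834: 757 kept direction and side of the threshold, 67 lost and 3 gained the call, and 7 changed sign, none of them called. The sign changes were those of Egr2 (-0.00722 after median centring, -0.055 after quantile normalization, -0.0615 after cyclic loess and -0.00605 without siRNA MEF2 replicate 1, its values leaving out 1 array running up to 0.084), Egr3 (-0.00274 after median centring) and Mycn (-0.037 after quantile normalization and -0.0394 after cyclic loess). The cause was not tested for any of these, nor for the shifts that follow. The members called numbered 5, but 2 after quantile normalization, 3 after cyclic loess, 3 with a variance trend and robust estimation, and 3 to 5 leaving out 1 array. In the MAX network 6 were called, 3 after quantile normalization, 3 after cyclic loess, and 2 to 5 leaving out 1 array. MYC targets called numbered 5, and 3 after cyclic loess. Heat-shock genes called numbered 2, and 4 after quantile normalization or with array weights. NF-kappaB genes called numbered 3, and 1 after median centring. Leaving out 1 array gave 2 to 5 MYC cofactors, 1 to 3 NF-kappaB genes and, over all genes, 2482 to 4287 calls against 4577. The lowest counts came without siRNA MEF2 replicate 2 (2482), siRNA control replicate 2 (2521) and siRNA control replicate 3 (2654). Every fit that leaves out 1 array tests fewer samples, and why these counts were the lowest was not tested. Groups share replicate numbers 1 to 3, but the labels do not say that a number marks a shared day or culture, and deviations of same-numbered arrays correlated at 0.11, 0.08 and 0.10, not all over 0.1, so the numbers were not taken as pairs. Each array nevertheless correlated best with its own number, a hint from the data only. The replicate block gave 5316 calls over all genes and 5 called members, the same in number as without it. The filter at the median signal left Egr2, Egr4, Ier2, Ier5 and Mycn untested.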
